A study of Mus musculus with 14 samples.

Results

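The 37 genes of the mouse mitochondrial genome were taken from a heart RNA sequencing experiment by one rule: every row of the gene count table whose name begins with mt-. They are 37 of the 54532 genes in the table and comprise 13 protein-coding genes, 2 ribosomal RNA (rRNA) genes and 22 transfer RNA (tRNA) genes. The experiment compared hearts of male C57BL/6J mice, labelled wild type and aged 8 weeks at the start, after a dose of 30 Gy of 60Co γ-rays given to the anterior chest with the remainder of the body behind lead. The 4 groups were Control_1d (n = 3) and IRR_1d (n = 3), taken 1 day after irradiation or at the same time without it, and Control_6w (n = 4) and IRR_6w (n = 4), taken 6 weeks after. Each of the 14 libraries came from 1 mouse heart, irradiated mice were anaesthetised, and whether control mice were is not given in the sources used here. The RNA came from heart tissue, and in such bulk samples fewer cells of a type and less RNA per cell cannot be told apart.

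The mitochondrial genome is a small circle of DNA, present in many copies per cell, that encodes core subunits of respiratory chain complexes I, III and IV and of ATP synthase (complex V), together with the rRNAs and tRNAs used to translate them inside the organelle. It is transcribed from both strands as long precursors, which are cut mainly at the tRNAs that lie between the other genes, so the final amount of each RNA depends on its processing and decay as well as on transcription. Heart muscle is among the tissues richest in mitochondria, and all remaining respiratory chain subunits, every subunit of complex II, and the enzymes that copy, transcribe and process mitochondrial DNA are encoded in the nucleus.

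Some of these genes cannot be read independently of other sequence, and the stretches below show where. Sequences are from the transcripts of the GENCODE M21 annotation of GRCm38 (mm10), the build the authors used, are written 5′ to 3′ on the coding strand, and positions are counted from 1 at the first base of the mitochondrial gene. The mt-Atp8 and mt-Atp6 reading frames share 43 bases (MT:7927-7969, plus strand), shown because fragments there belong to both genes, with the start codon of mt-Atp6 in capitals.
mt-Atp8 and mt-Atp6 overlap: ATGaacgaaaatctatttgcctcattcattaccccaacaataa
Nuclear copies of mitochondrial DNA form the second kind of ambiguity. A run of annotated nuclear genes on the minus strand of chromosome 1 (chr1:24611535-24616197) repeats nearly the whole of mt-Nd4l, mt-Co3, mt-Atp6 and mt-Co2 without a mismatch and part of mt-Nd4 likewise, whereas its copies of mt-Nd3 and part of mt-Co1 differ at 1 base each. Both single differences are shown with the base in capitals, T3C for Gm28438 against mt-Nd3 (MT:9459-9518) and A1066T for Gm29216 against mt-Co1 (MT:6390-6449).
mt-Nd3: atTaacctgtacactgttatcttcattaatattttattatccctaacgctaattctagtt
Gm28438: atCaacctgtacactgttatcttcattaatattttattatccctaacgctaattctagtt
mt-Co1: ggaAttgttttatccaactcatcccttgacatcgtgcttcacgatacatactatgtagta
Gm29216: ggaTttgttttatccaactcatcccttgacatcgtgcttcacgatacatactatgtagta
For mt-Co2, 60 bases (MT:7457-7516) are shown beside the identical chromosome 1 copy, Gm28661, and a less similar copy on chromosome 2, Gm13341. Capitals mark the 6 bases at which Gm13341 differs, T462C, C474T, C477T, A492C, G493A and C501A, the bases of this stretch by which a read of either could be told apart.
mt-Co2: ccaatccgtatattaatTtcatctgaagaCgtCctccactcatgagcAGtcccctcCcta
Gm28661: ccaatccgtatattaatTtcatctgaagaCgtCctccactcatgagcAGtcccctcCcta
Gm13341: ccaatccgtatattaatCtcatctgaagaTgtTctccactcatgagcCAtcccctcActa

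The libraries held 13336746 to 16837265 counts each, of which the 37 genes took between 10.4% and 44.2%. In 4 libraries many genes of moderate abundance had no count at all: among genes with a median of 2 to 5 CPM (counts scaled to the library total), 29.6% were at 0 in Control_1d replicate 1, 20.4% in IRR_6w replicate 3, 8.01% in IRR_6w replicate 4 and 1.58% in Control_6w replicate 1, against at most 0.273% in the other 10. Cardiomyocyte markers were present in every library, from 6710.2 to 46364 summed CPM, and were lowest in Control_6w replicate 3, which also held 4027 CPM of thymus, 959 CPM of brown fat and 385 CPM of atrium markers. IRR_6w replicate 1 had the next lowest sum, 11162 CPM, and held 3318 CPM of atrium, 1278 CPM of brown fat and 419 CPM of lung epithelium markers. Atrium markers summed to 1217 CPM in IRR_1d replicate 3 and 389 CPM in Control_1d replicate 2. Brown fat markers also reached 448 CPM in Control_6w replicate 2 and 436 CPM in IRR_1d replicate 3. Testis germ cell markers summed to 35.8, 29.6 and 43.4 CPM in Control_6w replicates 1 to 3. Every other library held at most 0.256 CPM of them. Haemoglobin genes took 7.19% of counts in IRR_6w replicate 1 and 2.87% in Control_1d replicate 3, against 0.188 to 1.22% elsewhere. The part of these differences between libraries in the results that follow was not tested.

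At 6 weeks after irradiation the mitochondrial genome supplied a smaller share of the heart's RNA counts in every irradiated heart than in any control heart of that age, while at 1 day the groups overlapped. At 6 weeks the share was 26.9, 25.5, 22.3 and 30.3% in Control_6w replicates 1 to 4 and 13.9, 22.2, 16.7 and 10.4% in IRR_6w replicates 1 to 4. The lowest control heart, replicate 3, and the highest irradiated heart, replicate 2, lay 0.102 percentage points apart. The group means were 26.2 ± 3.32% and 15.8 ± 4.95% (SD, n = 4 each), a difference of -10.4 points, or 0.603 times the control share. With haemoglobin left out of the totals the difference was -10.1 points and the groups overlapped, at 22.43% in IRR_6w replicate 2 and 22.37% in Control_6w replicate 3. Over all libraries left out in turn, and over the other ways of forming the share that were tried, the 6-week difference ran from -12.5 points to -7.95 points, the latter without the 4 libraries with many genes at 0.

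At 1 day after irradiation no such separation was present. The share was 20.3, 44.2 and 30.8% in Control_1d replicates 1 to 3 and 29.4, 40.2 and 28.1% in IRR_1d replicates 1 to 3. The controls spanned the whole irradiated range, with Control_1d replicate 1 the lowest and Control_1d replicate 2 the highest of the 6. Means were 31.7 ± 12.01% and 32.6 ± 6.64% (SD, n = 3 each), a difference of 0.817 points that was smaller than either SD and became -4.93 points without Control_1d replicate 1, -2.996 without IRR_1d replicate 2 and 7.05 without Control_1d replicate 2. Control hearts at 6 weeks were lower than control hearts at 1 day by a difference of -5.53 points, again with overlap, and without Control_1d replicate 2 this difference was 0.710 points. Irradiated hearts at 6 weeks lay wholly below irradiated hearts at 1 day, with a difference of -16.8 points and a gap of 5.95 points. That comparison shares its IRR_6w libraries with the 6-week comparison and its IRR_1d libraries with the 1-day comparison, so it is not a separate line of evidence. Counting error was small beside these spreads: the 95% Wilson binomial interval of Control_6w replicate 3 was 22.2 to 22.3%, which covers counting error only, since amplified reads are not independent molecules.

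**Figure D1:**
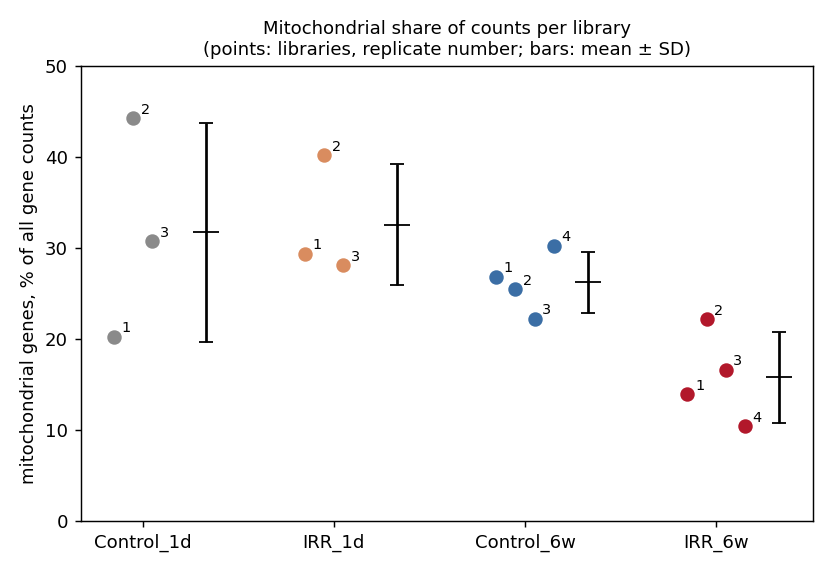
Share of all counts assigned to the 37 mitochondrial genes, in percent, for each of the 14 libraries by group, with points for libraries and bars for the group mean and SD. The 4 IRR_6w libraries lie between 10.4% and 22.2%, below all Control_6w libraries, and the 1-day groups overlap.

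Genes of the same complexes that are encoded in the nucleus gave a less clear picture. A list of 80 nuclear subunits of the respiratory chain and ATP synthase summed to 33229, 39544, 19006 and 30457 CPM in Control_6w replicates 1 to 4 and to 18979, 32715, 22818 and 23532 CPM in IRR_6w replicates 1 to 4. The groups overlapped, with Control_6w replicate 3 nearly as low as the lowest irradiated heart. All 79 tested subunits had a fitted log2 fold change below 0, against 56.2% of all tested genes, with a median of -0.68 against -0.09 for all genes tested. When library totals replaced the TMM scaling 76 were below 0, and the median was -0.46. None was called by edgeR, DESeq2 or limma-voom. Of all tested genes edgeR called 0.0187% lower, and DESeq2 0.226% on all libraries and 0.321% on the 2 groups only. With edgeR 3 were lower at an unadjusted p under 0.05, a share near the 3.37% of all tested genes that were lower at that limit: Ndufab1, the acyl carrier protein of complex I (log2 fold change -0.91, adjusted p = 0.414), Ndufs4 of complex I (-0.78, adjusted p = 0.437) and Cox7a2 of complex IV (-0.85, adjusted p = 0.529). By complex the median log2 fold changes were -0.65 for 36 subunits of complex I, -0.45 for the 4 of complex II, which has no mitochondrially encoded part, -0.68 for 9 of complex III, -0.77 for 14 of complex IV and -0.74 for 16 of complex V. Mitochondrial counts per count of this nuclear list were 8.08, 6.44, 11.7 and 9.94 in Control_6w and 7.35, 6.77, 7.301 and 4.43 in IRR_6w, so the ratio overlapped between the groups.

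**Figure D2:**
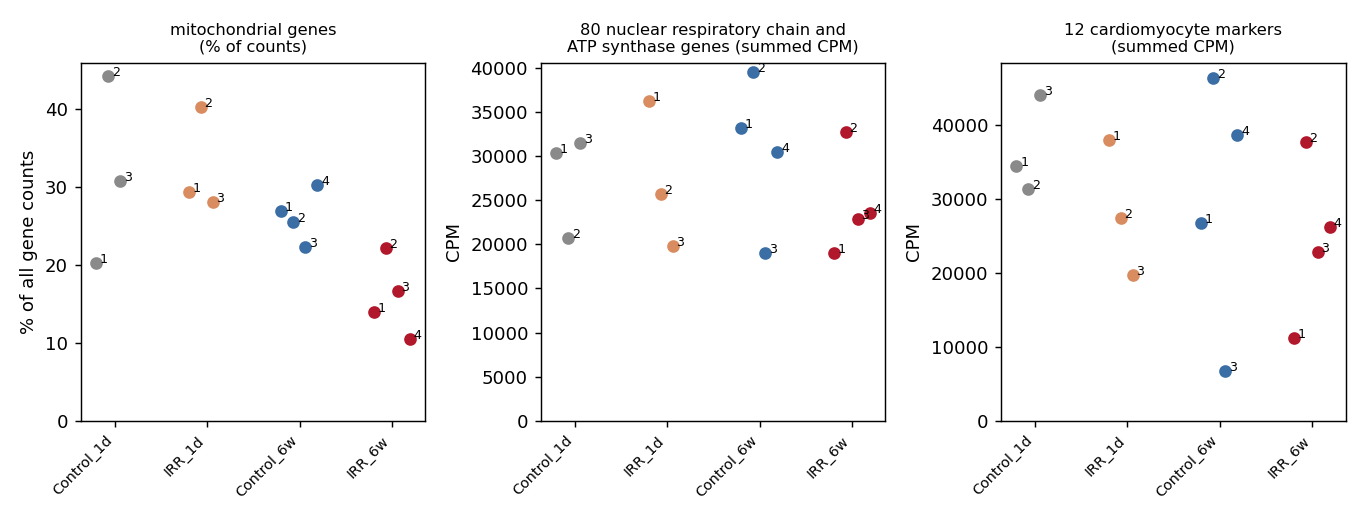
Separate panels by group, with 1 point per library and its replicate number. They show the mitochondrial share of counts in percent, the summed CPM of the nuclear-encoded respiratory chain and ATP synthase subunits, and the summed CPM of the cardiomyocyte markers. The IRR_6w points lie below all Control_6w points for the mitochondrial share, whereas for the nuclear subunits and the cardiomyocyte markers all groups overlap.

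Markers of cell types of the heart were read in the same comparison. The 12 cardiomyocyte markers, among them Myh6 and Tnnt2 of the contractile apparatus, summed to 26736, 46364, 6710.2 and 38652 CPM in Control_6w and 11162, 37624, 22864 and 26166 CPM in IRR_6w, with overlap, and 11 of 12 had a log2 fold change below 0 (median -0.57). All 7 macrophage markers were above 0 (median 1.20), and their sum was 619, 619, 301 and 606 CPM in Control_6w and 1314, 1513, 1486 and 1838 CPM in IRR_6w, without overlap. For fibroblast markers 5 of 6 were above 0, with a median of 0.96, and their sum was 2107, 1463, 1071 and 1785 CPM in Control_6w and 3104, 2466, 3887 and 3634 CPM in IRR_6w, without overlap. The 7 endothelial markers had a median of 0.23 with 3 of 7 below 0, and their sum of 2564, 2448, 2482 and 2199 CPM in Control_6w and 3709.5, 2986, 3357 and 3209 CPM in IRR_6w did not overlap either. None of the cardiomyocyte, macrophage, fibroblast and endothelial markers was called by edgeR, where it called 0.0187% of all tested genes lower and 0.237% higher. Of all tested genes, 56.2% had a log2 fold change below 0. The part of these lists in the lower mitochondrial share was not tested. A list of 12 RNAs described as lacking a poly(A) tail, of which only the histone genes Hist1h1c, Hist1h2bc and Hist1h4i passed the filter on low counts and not Rn7sk, Rmrp or the others, summed to 159, 111, 101 and 97.1 CPM in Control_6w and 161, 159, 347 and 274 CPM in IRR_6w, and at 1 day to 124, 84.6 and 112 CPM in Control_1d and 191, 152 and 152 CPM in IRR_1d. The irradiated hearts were higher without overlap at both times, at 6 weeks by a gap of 0.188 CPM. edgeR called none of the 3, with 6-week log2 fold changes of 1.04, 0.22 and 0.47, and the part of this list in the mitochondrial share was not tested.

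Within the mitochondrial counts, the shares of the complexes and RNA classes overlapped between the groups at 6 weeks in every case. Genes for complex IV took 32.9, 40.3, 37.4 and 39.3% of mitochondrial counts in Control_6w and 36.8, 41.6, 29.7 and 41.6% in IRR_6w, and genes for complex I took 43.4, 35.2, 36.98 and 38.2% and 39.2, 36.96, 51.4 and 34.4%. The group means for complex IV, 37.5 ± 3.27% and 37.5 ± 5.61%, were nearly the same, and both classes overlapped. Complex III, through its single member mt-Cytb, took 11.4, 16.2, 19.1 and 15.9% and 18.99, 14.4, 10.4 and 8.37%. Complex V was a minor class throughout, at 1.71, 0.388, 0.564 and 0.505% in Control_6w and 0.238, 0.274, 0.494 and 0.428% in IRR_6w, with Control_6w replicate 1 far above the other 6-week libraries. The 2 rRNAs together took 10.3, 7.54, 5.67 and 5.695% and 4.43, 6.42, 7.74 and 14.8%, highest in IRR_6w replicate 4, and the 22 tRNAs between 0.111% and 0.399% over all 14 libraries.

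At 1 day the split between classes did separate the groups in 2 places, although the total did not. Complex IV took 59.2, 37.5 and 36.9% of mitochondrial counts in Control_1d and 36.6, 34.8 and 35.2% in IRR_1d, lower without overlap by a gap of 0.367 points. The mean of Control_1d, 44.5 ± 12.7% against 35.6 ± 0.912% in IRR_1d (SD, n = 3 each), was set by replicate 1, where mt-Co1 alone took 58.7%. The tRNAs took 0.111, 0.270 and 0.267% in Control_1d and 0.389, 0.347 and 0.365% in IRR_1d, higher without overlap by a gap of 0.0772 points. The same class was also higher without overlap in the unirradiated Control_6w hearts than in Control_1d, at 0.338, 0.378, 0.332 and 0.384%, by a gap of 0.0619 points, so Control_1d was lower than both. Shares of a whole are not independent, and no test was run on them.

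**Figure D3:**
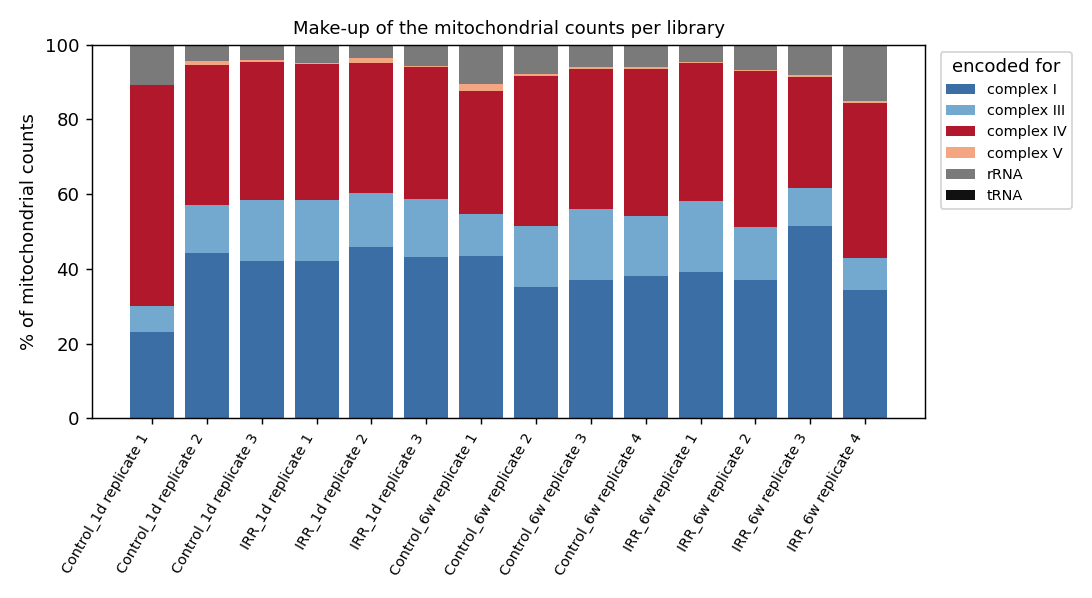
Make-up of the mitochondrial counts in each library, in percent, stacked by the complex or RNA class the genes encode, for all 14 libraries. Complexes I and IV hold most of every bar, Control_1d replicate 1 has the largest complex IV share at 59.2% and IRR_6w replicate 4 the largest rRNA share at 14.8%.

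Per length, the 37 genes differed by orders of magnitude. Levels between genes are compared as FPKM, the counts scaled to library total and annotated gene length. Over the 14 libraries mt-Co1, the catalytic subunit of complex IV, had the highest median level at 63861 FPKM, followed by mt-Cytb at 36579, mt-Nd1 at 29143, mt-Nd2 at 24168 and mt-Nd4 at 16038 FPKM. The order of neighbours is loose, since the ranges over libraries of all 5 overlap with those of the next gene. The other core subunits of complex IV, mt-Co2 and mt-Co3, stood at 1406 and 1324 FPKM, and mt-Atp6 of ATP synthase at 1326 FPKM, although all of these are cut from the same strand's precursor as mt-Co1. The lowest protein-coding genes were mt-Nd4l at 474, mt-Nd3 at 368 and mt-Atp8 at 12.05 FPKM. mt-Atp8 shares 43 bases with mt-Atp6, and mt-Nd4l shares 7 with mt-Nd4. How fragments on overlapping genes were counted is not given in the sources used here. These values are therefore counts per length and not levels of separate mRNAs.

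Apart from mt-Atp8, the protein-coding genes of low level were those matched almost throughout by annotated nuclear copies. For mt-Atp8 the search cannot tell, since it lies between mt-Co2 and mt-Atp6. Their copies on chromosome 1, Gm28661 (from 24614885) and Gm10925 (to 24614651), leave a stretch between them that was not searched. Of all 150-base windows, the length of a read, 99.8% in mt-Co3, 99.4% in mt-Co2, 99.4% in mt-Atp6, 97.97% in mt-Nd4l and 96.98% in mt-Nd3 also occurred in an annotated nuclear transcript, against 59.2% in mt-Nd4, 23.6% in mt-Co1 and 0% in the remaining 6 mRNAs. The 5 genes matched almost throughout took 0.689 to 5.55% of mitochondrial counts per library at 53.7 to 6685 FPKM. The 5 long unmatched mRNAs (mt-Nd1, mt-Nd2, mt-Nd5, mt-Nd6 and mt-Cytb) took 27.8 to 54.1% at 5285 to 50614 FPKM, and within each of the 14 libraries every gene of the first set was below every gene of the second. The FPKM ranges overlapped only when libraries were pooled. Nuclear copies were themselves counted: of the counts given to mt-Co2 or Gm28661, Gm28661 held 28.6 to 50.5% per library. Gm10925 held 14.7 to 45.6% of those given to it or mt-Atp6, and Gm28437 12.3 to 39.8% of those given to it or mt-Co3. Gm29216 held 0.147 to 1.25% of those given to it or mt-Co1. That value is not like the others, since Gm29216 matches only bases 1063 to 1545 of mt-Co1 and counts on the whole gene were used. How reads that fit several places were treated is not given in the sources used here. The levels of mt-Co2, mt-Co3, mt-Atp6, mt-Nd3 and mt-Nd4l are therefore uncertain, and so is that of mt-Atp8. The part of the nuclear copies in their low levels was not tested.

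**Figure D4:**
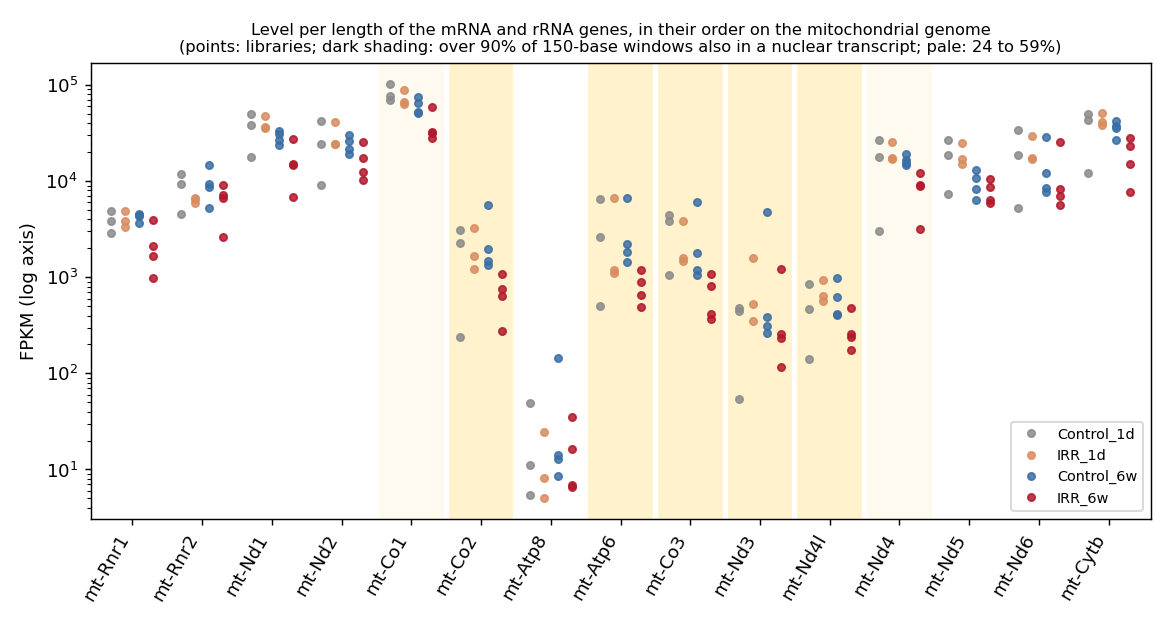
Level of each of the 13 mRNAs and 2 rRNAs in FPKM on a log axis, 1 point per library coloured by group, in the order of the genes along the mitochondrial genome. mt-Co1 is highest with a median of 63861 FPKM and mt-Atp8 lowest with 12.05 FPKM.

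Gene by gene, 31 of the 37 passed the filter on low counts and were tested, the untested 6 being tRNAs. A gene was called when edgeR's quasi-likelihood test gave an adjusted p under 0.05 (Benjamini-Hochberg over 16034 genes) and a fold change above 2 or below 0.5. At 6 weeks 0 of the 31 were called by edgeR, where 0.0187% of all tested genes were called lower. At an unadjusted p under 0.05 with the same fold limits edgeR gave 9 of the 31, all lower, against 1.75% of all tested genes: mt-Rnr1, mt-Co2, mt-Co3, mt-Atp6, mt-Nd4l, mt-Tp, mt-Tl1, mt-Tl2 and mt-Ts2. DESeq2 fitted on all libraries called 1 (mt-Co3, adjusted p = 0.0420) where it called 0.226% of genes lower, DESeq2 on the 8 libraries of these groups called 4 (mt-Co2, mt-Co3, mt-Atp6 and mt-Tp) where it called 0.321% lower, and limma-voom called 0. The direction was shared: all 31 fitted log2 fold changes were below 0, as were 56.2% of all tested genes, and the median was -1.11 against -0.09 for all genes. With library totals in place of TMM, which moved the median of all genes to 0.14, 30 of the 31 were below 0, mt-Th being the exception, and without Control_6w replicate 1 there were 27, with mt-Nd3, mt-Nd6, mt-Atp8 and mt-Th above 0. On CPM 6 of the 31 were lower without overlap (mt-Co2, mt-Atp6, mt-Nd4, mt-Tg, mt-Tl2 and mt-Tp), against 0.493% of all tested genes.

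**Figure D5:**
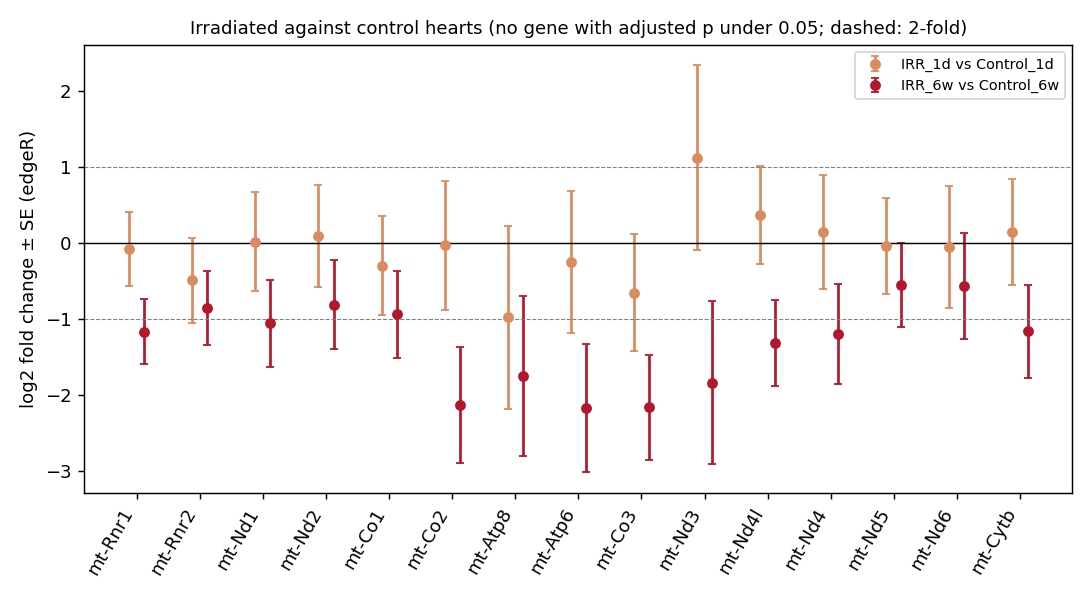
log2 fold change ± SE from edgeR of irradiated against control hearts for the 13 mRNAs and 2 rRNAs, at 1 day and at 6 weeks, in genome order, with dashed lines at 2-fold. All 15 points at 6 weeks lie below 0, the lowest being mt-Atp6 at -2.17, whereas those at 1 day lie on both sides, and none passed an adjusted p of 0.05.

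For complex IV, which hands electrons to oxygen, the mitochondrial genome encodes the 3 core subunits. mt-Co1 (MT:5328-6872, plus strand) measured 79856, 100341, 81396 and 116811 CPM in Control_6w replicates 1 to 4 and 50088, 90772, 48710.0 and 42957 CPM in IRR_6w replicates 1 to 4. IRR_6w replicate 2 lay among the controls and the other 3 irradiated hearts below all of them. Group means were 94601 ± 17493 and 58132 ± 21978 CPM (SD, n = 4 each), and edgeR gave log2 fold change -0.93 ± 0.57 (SE), adjusted p = 0.701. mt-Co2 (MT:7013-7696), which takes electrons from cytochrome c, measured 3822, 922, 1001 and 1346 CPM and 440.1, 746, 516 and 187 CPM in the same order. Every irradiated heart was below every control heart, while Control_6w replicate 1 was far above the other controls. The edgeR log2 fold change -2.13 ± 0.77 (SE), adjusted p = 0.381, became -1.43 without that library. mt-Co3 (MT:8607-9390), a structural core subunit, measured 4770.2, 1409, 824 and 930.0 CPM and 854, 636, 326 and 286 CPM, again with Control_6w replicate 1 standing apart and with IRR_6w replicate 1 within the control range. It had the smallest adjusted p of the 31 at 6 weeks in edgeR (log2 fold change -2.16 ± 0.69 (SE), adjusted p = 0.282), and the log2 fold change was -1.25 without Control_6w replicate 1 and -0.70 without the 4 libraries with many genes at 0.

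The nuclear copies of these genes had fitted values on the same side of 0 as the genes themselves. In the edgeR fit Gm28437, identical to mt-Co3, had a 6-week log2 fold change of -1.82 ± 0.53 (SE; adjusted p = 0.208), Gm28661, identical to mt-Co2, of -1.94 ± 0.69 (SE; adjusted p = 0.369), and Gm10925, identical to mt-Atp6, of -1.48 ± 0.64 (SE; adjusted p = 0.520). None of these was called, and because the sequences are the same the counts of gene and copy cannot be told apart. Adding the counts of all nuclear copies to those of the 37 genes left the 6-week difference in the mitochondrial share at -10.7 points.

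Complex I, which oxidises NADH, takes 7 subunits from the mitochondrial genome, all of its membrane arm. mt-Nd4 (MT:10167-11544, plus strand) measured 23156, 20277, 21044 and 26194 CPM in Control_6w and 12414, 16568, 12543 and 4425 CPM in IRR_6w. All irradiated hearts were below all control hearts, IRR_6w replicate 4 most of all, and edgeR gave log2 fold change -1.20 ± 0.66 (SE), adjusted p = 0.646. mt-Nd1 (MT:2751-3707), at the joint of the membrane and peripheral arms, measured 25451, 29429.7, 22828 and 32168 CPM and 14603, 26349, 14108 and 6472 CPM. Here IRR_6w replicate 2 reached into the control range, as it did for mt-Co1, and edgeR gave log2 fold change -1.06 ± 0.57 (SE), adjusted p = 0.644. mt-Nd2 and mt-Nd5, further proton-pumping subunits, were closer between groups, at 25342 ± 5105 against 17049 ± 6968 CPM and 17487 ± 5293 against 14334 ± 3937 CPM (SD, n = 4 each). Their edgeR log2 fold changes were -0.81 (adjusted p = 0.751) and -0.55 (adjusted p = 0.825).

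The small subunits of complex I were less steady. mt-Nd4l (MT:9877-10173), whose last 7 bases are also the first of mt-Nd4, measured 121, 289.9, 123 and 184 CPM in Control_6w and 70.9, 141, 75.96 and 52.2 CPM in IRR_6w, overlapping through IRR_6w replicate 2, with edgeR giving log2 fold change -1.31 ± 0.56 (SE), adjusted p = 0.510. mt-Nd3 (MT:9459-9806) measured 1654, 134, 107 and 90.7 CPM and 80.3, 421, 90.1 and 40.2 CPM. One library in each group stood far above the rest, Control_6w replicate 1 and IRR_6w replicate 2, and the edgeR log2 fold change of -1.84 (adjusted p = 0.683) turned to 0.35 without the former. mt-Nd6 (MT:13552-14070), the single mRNA encoded on the minus strand, measured 14879, 4429.9, 3964 and 6285 CPM and 2963, 4279, 13233 and 3662 CPM. The high libraries, Control_6w replicate 1 and IRR_6w replicate 3, are among the 4 with many genes at 0, and the edgeR log2 fold change of -0.56 (adjusted p = 0.866) was 0.0068 without the former. Whether counting used strand is not given in the sources used here, so reads from the plus-strand precursor opposite mt-Nd6, and the 14 bases it shares with mt-Nd5, cannot be told apart from its own.

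Cytochrome b, mt-Cytb (MT:14145-15288, plus strand), is the one subunit of complex III that the mitochondrial genome encodes. It measured 30643, 41229, 42464 and 48016 CPM in Control_6w and 26484, 31835, 17267 and 8737 CPM in IRR_6w. The groups overlapped only through the lowest control, replicate 1, and the highest irradiated heart, replicate 2, and edgeR gave log2 fold change -1.16 ± 0.61 (SE), adjusted p = 0.631. Without the 4 libraries with many genes at 0, the edgeR log2 fold change was -0.75 for mt-Cytb, -0.79 for mt-Nd4, -0.61 for mt-Nd1, -0.65 for mt-Co1 and -1.02 for mt-Co2, nearer to 0, whereas it was -0.90 for mt-Rnr2 and -0.60 for mt-Nd6, slightly farther from 0.

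The membrane subunits of ATP synthase encoded here are mt-Atp6 and mt-Atp8. mt-Atp6 (MT:7927-8607, plus strand), part of the proton channel, measured 4552, 986, 1252 and 1527 CPM in Control_6w and 331, 605, 816 and 443 CPM in IRR_6w. Every irradiated heart was below every control heart, and Control_6w replicate 1 again stood apart. It had the lowest log2 fold change of the 15 mRNAs and rRNAs in edgeR (log2 fold change -2.17 ± 0.85 (SE), adjusted p = 0.443), which was -1.45 without that library. mt-Atp8, its smaller neighbour, measured 29.5, 2.91, 2.63 and 1.72 CPM and 1.35, 1.41, 7.198 and 3.33 CPM, and its edgeR log2 fold change of -1.75 (adjusted p = 0.698) became 0.17 without Control_6w replicate 1. That library held the highest 6-week level of mt-Co2, mt-Co3, mt-Atp6, mt-Atp8 and mt-Nd3, which lie next to each other on the genome apart from tRNAs, and also of mt-Nd2, mt-Nd6 and mt-Rnr2, which do not.

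The rRNAs form the core of the mitochondrial ribosome, mt-Rnr1 of its small and mt-Rnr2 of its large subunit. mt-Rnr1 (MT:70-1024, plus strand) measured 4132, 4299, 4209 and 3502 CPM in Control_6w and 2009, 3740.0, 1578 and 941 CPM in IRR_6w. The controls lay close together and 3 of 4 irradiated hearts were well below them, with IRR_6w replicate 2 in the control range. Group means were 4035 ± 362 and 2067 ± 1199 CPM (SD, n = 4 each), and edgeR gave log2 fold change -1.16 ± 0.43 (SE), adjusted p = 0.395, which was -0.60 on the log2 scale without the 4 libraries with many genes at 0. mt-Rnr2 (MT:1094-2675) measured 23441, 14914, 8412 and 13738 CPM and 4163, 10483, 11309 and 14552 CPM, with wide overlap and an edgeR log2 fold change of -0.85 (adjusted p = 0.667). The ratio of mt-Rnr2 to mt-Rnr1 counts was 6.74, 4.06 and 1.55 in Control_1d, 2.56, 3.23 and 2.23 in IRR_1d, 5.67, 3.47, 1.998 and 3.92 in Control_6w and 2.07, 2.803, 7.17 and 15.5 in IRR_6w. Its 4 highest values, from 5.67 to 15.5, were those of the 4 libraries with many genes at 0, and whether the libraries were made from polyadenylated or rRNA-depleted RNA is not given in the sources used here.

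The 22 tRNAs are each shorter than a single 150-base read, and together they held at most 0.399% of the mitochondrial counts of a library. Those with the most counts were mt-Tc, mt-Tp and mt-Te, for cysteine, proline and glutamate, which took 43.4 to 76.7% of tRNA counts per library. All 3 are among the 8 tRNAs encoded on the minus strand, and those 8 took 63.7 to 89.2% of tRNA counts (median 82.9%). Whether counting used strand, and how fragments that also touch a neighbouring gene were treated, is not given in the sources used here. These are therefore counts on the tRNA genes and not levels of the tRNAs. mt-Tp measured 359, 181, 280.0 and 212 CPM in Control_6w and 124, 155, 104 and 51.9 CPM in IRR_6w. Every irradiated heart was below every control heart, and edgeR gave log2 fold change -1.45 ± 0.57 (SE), adjusted p = 0.442. mt-Te measured 149, 123, 127 and 197 CPM and 38.7, 78.4, 139 and 59.9 CPM, and mt-Tc 154, 284, 160.1 and 313 CPM and 71.5, 311, 78.7 and 88.4 CPM, both with overlap and with edgeR log2 fold changes of -1.16 (adjusted p = 0.631) and -0.94 (adjusted p = 0.730). The log2 fold changes of all 16 tested tRNAs ran from -2.48 (mt-Ts2) to -0.01 (mt-Th). Of the untested tRNAs, mt-Tf had 0 counts in all 14 libraries, mt-Tk and mt-Tt in 12, mt-Td in 9, mt-Tv in 7 and mt-Ts1 in 5.

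At 1 day no mitochondrial gene passed the test in either direction. edgeR called 0 of the 31, where it called 0.0249% of all tested genes higher and 0% lower, and 0 of the 31 reached an unadjusted p under 0.05, as 0.96% of all tested genes did lower and 1.94% higher. DESeq2 called 0 as well, where it called 0.0298% of genes lower and 0.167% higher on all libraries and 0.155% lower and 0.249% higher on the 6 libraries of 1 day. limma-voom called 0 of all genes. The adjusted p of all 31 was 1 in edgeR. Of the 31 fitted log2 fold changes 11 were below 0, against 44.7% of all tested genes, and the median was 0.15 against 0.06 for all genes. mt-Co1 measured 118853, 160216 and 109042 CPM in Control_1d replicates 1 to 3 and 103323, 136609 and 96990.2 CPM in IRR_1d replicates 1 to 3, with an edgeR log2 fold change of -0.29 ± 0.66 (SE). mt-Nd4 ranged more widely among controls, at 4223, 36908 and 24309 CPM, than among irradiated hearts, at 23197, 35296 and 24214 CPM. Control_1d replicate 1 was the low library for mt-Nd4, and also for mt-Cytb at 13762 CPM against at least 43799.8 CPM in the other 5 libraries of 1 day.

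Among the tRNAs tested at 1 day the log2 fold changes ran from -0.67 (mt-Tq) to 1.16 (mt-Th). mt-Tc measured 33.1, 219 and 256 CPM in Control_1d and 314, 356 and 313 CPM in IRR_1d, and mt-Tl2, for leucine, 5.19, 15.2 and 14.3 CPM and 23.2, 17.4 and 15.2 CPM. These were the 2 of the 31 whose groups did not overlap on CPM, both higher in IRR_1d, which is near the 7.28% of all tested genes that did so in that direction. The log2 fold changes of mt-Tc and mt-Tl2 in edgeR were 0.77 (adjusted p = 1) and 0.52 (adjusted p = 1). Among the mRNAs mt-Nd3 differed most, at 18.7, 156 and 166 CPM and 554, 182 and 122 CPM (edgeR log2 fold change 1.13, adjusted p = 1), with IRR_1d replicate 1 alone above the controls by a wide margin. Its log2 fold change ran from 0.28 to 1.58 with 1 library left out. Without the 4 libraries with many genes at 0 it was 0.59.

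Whether the irradiation effect differed between the times was tested directly as an interaction in the edgeR fit. It called 0 of the 31, as of all tested genes, and 1 (mt-Tm, log2 difference -2.35) reached an unadjusted p under 0.05 with the fold limits, against 0.879% of all tested genes lower, with an adjusted p of 0.990. DESeq2 on all libraries also called 0 of the mitochondrial genes, where it called 0.0317% of genes lower and 0.254% higher, and limma-voom called 0 of all genes. Control hearts at 6 weeks against 1 day gave 0 calls, 0 at an unadjusted p under 0.05 (against 1.75% of all tested genes lower and 3.54% higher) and a smallest adjusted p of 0.902 in edgeR, where 0% of all tested genes were called. DESeq2 called 0 of the mitochondrial genes, where it called 0.0614% of genes lower and 0.0819% higher on all libraries and 0.0742% lower and 0.126% higher on the 7 libraries of these groups, and limma-voom called 0 of all genes. Of the 31, 17 were below 0 against 40.9% of all tested genes, and no gene separated the groups on CPM, against 1.03% of all tested genes lower and 5.77% higher without overlap.

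Irradiated hearts at 6 weeks against irradiated hearts at 1 day, a comparison that mixes time with the course after irradiation, gave lower fitted values for all 31 genes, against 51.4% of all tested genes. With library totals in place of TMM mt-Rnr2 and mt-Atp8 were not below 0. The median log2 fold change was -1.49 against -0.02 for all genes. edgeR called 0, where it called 0.00624% of all tested genes lower, and gave 15 lower at an unadjusted p under 0.05 with the fold limits, against 0.786% of all tested genes lower. On CPM 17 of the 31 were lower without overlap, against 1.12% of all tested genes. DESeq2 on the 7 libraries called 9 (mt-Cytb, mt-Nd1, mt-Nd4, mt-Nd4l, mt-Nd5, mt-Co2, mt-Co3, mt-Te and mt-Tl1) where it called 0.21% of genes lower, DESeq2 on all libraries called 0 where it called 0.105% lower, and limma-voom called 0. Side by side, the edgeR log2 fold changes of IRR_6w against Control_6w and against IRR_1d were -0.93 and -1.28 for mt-Co1, -1.16 and -1.55 for mt-Cytb, -0.55 and -1.62 for mt-Nd5, -2.17 and -2.33 for mt-Atp6 and -0.85 and -0.33 for mt-Rnr2, both comparisons using the same IRR_6w hearts. Against IRR_1d the value of mt-Atp6 was -0.76 without IRR_1d replicate 2, and that of mt-Rnr2 was -0.07 without IRR_6w replicate 1.

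The nuclear genes that transcribe and maintain the mitochondrial genome had list medians closer to 0 at 6 weeks than the mitochondrial genes. Of 10 genes of mitochondrial transcription, 9 had a log2 fold change below 0 (median -0.34), against 56.2% of all tested genes, and edgeR called none, where it called 0.0187% of all tested genes lower. Tfam, which packages the DNA and opens its promoters, had -0.48 (adjusted p = 0.659), Polrmt, the RNA polymerase, 0.03, Tfb2m, its partner in initiation, -0.18, and Tefm, its elongation factor, -0.18. Mterf2, of the termination factor family, was the one gene of that list at an unadjusted p under 0.05 in edgeR (-1.28, adjusted p = 0.503), against 3.37% of all tested genes lower. For replication 9 of 14 were below 0 (median -0.29), a share near the 56.2% of all tested genes, among them the helicase Twnk at -0.38, the polymerase Polg at -0.40 and the single-strand binding protein Ssbp1 at -0.83 (edgeR, adjusted p = 0.537). For RNA processing 21 of 22 were below 0 (median -0.20), with Lrpprc, which stabilises mitochondrial mRNAs, at -0.03. Of 10 regulators of mitochondrial biogenesis 7 were below 0 (median -0.31), also near that share, with Ppargc1a at -0.11 and Nrf1 at -0.72. All these medians compare with -0.09 for all tested genes.

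At 1 day Tfam had an edgeR log2 fold change of -0.67 (adjusted p = 1), Polrmt -0.13, Lrpprc -0.59 and Ppargc1a -0.19. None was called, where edgeR called 0.0249% of all tested genes higher and 0% lower. The nuclear respiratory chain list had a median of 0.14, beside 0.15 for the mitochondrial genes and 0.06 for all tested genes. In that list 28 of 79 were below 0, against 44.7% of all tested genes.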

How the data were processed

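Total RNA of 14 mouse hearts was sequenced as 150-base read pairs. The authors deposited 1 table of raw gene counts (unit: count), made according to their methods by trimming with Trim Galore 0.6.1, checking with FastQC 0.11.8, aligning to mm10 with STAR 2.5.0a and counting with HTSeq, with no replicates pooled. RNA selection, strand setting and the treatment of reads with several matches are not given in the sources used here, and reads from nuclear copies of mitochondrial DNA or from the opposite strand could therefore enter or leave a gene's count.

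Here counts were fitted with edgeR 4.0.16 (R 4.3.3): filterByExpr kept 16034 of 54532 genes, TMM scaled the libraries, and the quasi-likelihood test used all 14 libraries in 4 groups with group as the only term. A gene was called at an adjusted p under 0.05 with a fold change above 2 or below 0.5. Its p-values weigh a difference between groups against the spread between these hearts, estimated over the 4 groups together and moderated across genes. CPM and FPKM were computed from the counts with library totals and annotated gene lengths, and shares from summed counts, with 95% Wilson intervals. Sums over members and shares were described without a test. The alternatives were library totals, DESeq2 size factors, scaling without the mitochondrial genes, no filter, DESeq2 1.42.0, limma-voom (limma 3.58.1), unadjusted p, no fold limit, a replicate block, the 2 groups alone, and each library left out. The 4 libraries with many genes at 0 were also left out together. So were 3 libraries set apart for markers of other tissues (Control_6w replicate 3, IRR_6w replicate 1 and IRR_1d replicate 3), although other libraries held some such markers too. Leaving haemoglobin out of the totals and adding the nuclear copies to the mitochondrial counts were chosen after seeing the data. Nuclear copies were annotated transcripts outside the mitochondrial genome that matched its genes, since transcripts and not a genome were searched. Tables were handled with Python 3.11.15, pandas 2.3.3 and scipy 1.17.1 and drawn with matplotlib 3.10.9. The fitting steps were tested on simulated data.

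The genes and the lists were chosen with earlier results of these data known. All 13 mRNAs and 2 rRNAs are named, and of the tRNAs the 3 with the highest mean count, those left out of the test for low counts, those at the ends of a range and those in counts of separated genes. The replicate numbers did not pair the hearts: deviations of same-numbered libraries correlated at -0.364 to 0.371.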

Additional observations from a re-analysis of the deposited data

Results flagged for a closer look

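In groups of 4, each library's distance to the nearest other library was taken as a share of the group's range. A library was looked at more closely when that share exceeded Dixon's 95% limit. Of 46 combinations of group and value, 9 were marked, where chance marks about 1 in 20 of independent, normally distributed values. The values here are not independent, as the complex V share is made up of mt-Atp6 and mt-Atp8, so an excess over chance cannot be read from them. Of the 9 marked, 6 were in Control_6w replicate 1. Its complex V share of mitochondrial counts was 1.71%, against 0.388 to 0.564% in the other Control_6w hearts. Its levels were 3822 CPM for mt-Co2 (others 922 to 1346 CPM), 4770.2 CPM for mt-Co3 (others 824 to 1409 CPM), 4552 CPM for mt-Atp6 (others 986 to 1527 CPM), 29.5 CPM for mt-Atp8 (others 1.72 to 2.91 CPM) and 1654 CPM for mt-Nd3 (others 90.7 to 134 CPM). In IRR_6w replicate 2, mt-Co1 was at 90772 CPM (others 42957 to 50088 CPM) and mt-Nd3 at 421 CPM (others 40.2 to 90.1 CPM). In IRR_6w replicate 3, mt-Nd6 was at 13233 CPM (others 2963 to 4279 CPM). Control_6w replicate 1 and IRR_6w replicate 3 are 2 of the 4 libraries in which many genes of moderate abundance had 0 counts, and IRR_6w replicate 2 is not. The part of that feature in these values was not tested.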

How the results depend on the processing

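The count of 0 mitochondrial genes called held under every edgeR and limma setting with adjusted p in all 5 comparisons. At 6 weeks DESeq2 called 1 on all libraries and 4 on the 2 groups alone, and the unadjusted p gave 9. For IRR_6w against IRR_1d, DESeq2 on the 2 groups called 9 and the unadjusted p gave 15, and for the change in irradiation effect the unadjusted p gave 1. With the replicate block 0 genes were called in each comparison, and the numbers share only a label.

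The 6-week difference in mitochondrial share kept its direction under all settings (-12.5 to -8.63 points with 1 library left out), as did that of IRR_6w against IRR_1d (-18.98 to -12.9). The 1-day difference of 0.817 points was -1.38 with medians, -4.93 without the 4 libraries with many genes at 0, and -4.93 to 7.05 with 1 library left out. Control_6w against Control_1d (-5.53) gave -11.5 without those 4, and -11.3 to 0.710 with 1 left out. The difference in the mRNA share of mitochondrial counts was negative under all settings tried for Control_6w against Control_1d (-3.35 to -0.0662 with 1 library left out) and depended on the setting elsewhere. IRR_1d against Control_1d gave -0.387 with medians, -0.156 without the rRNAs, -0.474 without the 4 libraries and -0.474 to 2.81 with 1 left out. IRR_6w against Control_6w gave 0.0504 without the rRNAs, 0.923 without the 4 libraries and -2.34 to 1.14 with 1 left out. IRR_6w against IRR_1d gave -2.58 with medians, 0.0486 without the rRNAs, -5.72 without the 3 libraries set apart for markers of other tissues, -0.972 without the 4, and -5.22 to -1.74 with 1 left out.

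Without Control_6w replicate 1 the 6-week log2 fold changes were 0.0068 for mt-Nd6, 0.35 for mt-Nd3 and 0.17 for mt-Atp8, the highest with 1 library left out, the lowest being -1.27, -3.12 and -2.46, and mt-Nd3 was at 1.09 without the 4 libraries. For IRR_6w against IRR_1d, mt-Rnr2 was at 0.0092 with library totals, and mt-Atp8 at 0.37 with library totals, 0.092 with limma-voom, 0.91 with the replicate block and -0.78 to 0.99 with 1 library left out. Of 14 further genes, 12 changed sign under some setting for IRR_1d against Control_1d, 11 for Control_6w against Control_1d and 5 for the change in effect. The causes were not tested. With 3 or 4 hearts a group, the SEs for the mRNAs and rRNAs at 6 weeks were 0.43 to 1.07 on the log2 scale. Even a log2 fold change of -2.16 ± 0.69 (SE), that of mt-Co3, was not called by edgeR. The smallest detectable difference was not measured. Low counts kept 6 tRNAs out of the test.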
